A study of Rattus norvegicus with 24 samples.

Results

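Lung was compared with blood in the 6 rats of an inhalation study that were exposed to air without silica, using 12 of the 24 arrays of the series: 6 lung arrays and 6 blood arrays, each pair from the same animal. The arrays were chosen by their labels (no silica, lung or blood), and the silica arrays were not used. Illumina BeadChips, on which each transcript is read by a set of beads carrying a probe, measured RNA abundance. Both groups were male rats of the strain that the labels call CDF Fisher 344, with an age of 3 months, and the labels do not say at which point of the study that age applies. The air exposure (0 mg/m3 silica) lasted 6 hours a day for 5 days, and tissue was taken 32 weeks later. The groups therefore share strain, sex, exposure and time, and differ in tissue. Blood RNA had been depleted of globin transcripts, per the labels. The lung samples carry the same extraction text, and neither the preparation of lung RNA nor any flushing of the lungs free of blood is described in the labels. Tissue and any difference in RNA handling cannot be told apart.

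The lung is built from airway and alveolar epithelium, a dense capillary bed and a connective tissue of collagen and elastic fibres, with resident macrophages. Alveolar type 2 cells secrete surfactant, the lipid and protein film that keeps alveoli open, and flat type 1 cells form the gas exchange surface. Circulating blood holds leukocytes, platelets and red cells, and young red cells (reticulocytes) still carry RNA for haemoglobin, haem synthesis and the membrane skeleton.

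Of 21792 probes, each lung array detected 11013 to 11431 (detection p under 0.05), against 7609 to 8469 in blood. The 50 brightest probes held 9.61% to 9.98% of the signal in lung and 16.2% to 17.9% in blood. Arrays correlated at 0.994 to 0.996 within lung, 0.98 to 0.996 within blood and 0.647 to 0.691 between the tissues. A principal component analysis put the tissues at opposite ends of its first axis (96.4% of variance), with lung between -65.3 and -62.3 and blood between 59.5 and 65.9. The blood arrays of rats 2 and 6 stood apart from the other 4 blood arrays: on the first component of blood alone (54.0%) they lay at 19.8 and 9.26, and the others between -8.72 and -5.39. The counts below were therefore also taken without both rats. Surfactant protein, erythroid and platelet genes followed the labels, as described gene by gene below. Some other marker genes of lung or blood cells did not.

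Tested were 10166 probes (10103 genes) detected on all 6 arrays of at least one tissue, so each tested probe was measurable throughout lung, blood or both. Values are log2 intensities after background correction and quantile normalization of the 12 arrays together. Differences are lung minus blood on that scale, each rat serving as its own control, with the standard error from limma. Of these probes, 6207 were detected on all 12 arrays, 1835 on every lung array and no blood array, and 78 on every blood array and no lung array. At a Benjamini-Hochberg adjusted p of 0.05, 7995 probes (78.6%) differed, 4327 higher in lung (42.6%) and 3668 higher in blood (36.1%). Over genes instead of probes the share was 78.7%. The lung and blood values of 68.4% of probes, and of 68.5% of genes, did not overlap. Adding the condition of at least 4-fold left 506 probes higher in lung (4.98%) and 513 higher in blood (5.05%), and 105 and 95 were at least 16-fold apart. Without rats 2 and 6 these 4-fold counts were 504 and 525. Since a gene entered the test by being detected throughout one tissue, the counts given for gene lists describe the tested members and not all members.

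The plain split depended on how the arrays were scaled. Lung held 54.1% of the calls as reported, 89.6% with no normalization between arrays and 28.1% when arrays were centred on their median over the probes detected on all 12. The median difference over all tested probes was 0.03, 0.45 and -0.77 in the same order. In all, 4342 of the 7995 plain calls changed direction under at least one of the 3 scaling alternatives, and none of the 1019 calls at 4-fold did. The 4-fold rule is used below for that reason. It still depended on scaling in size: without normalization all 506 lung calls held, and 198 of the 513 blood calls did. Median centring kept 388 of the 506 and 424 of the 513.

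A second choice bore on the size of the folds. The background model inferred an SD of 83.1 to 160.3 intensity units from the detection p-values, while the undetected probes themselves spread by 4.11 to 5.59 units, so dim values were lifted towards a shared floor near 6.45. With the background read from the undetected probes instead, a setting chosen after the data were seen, 1109 probes were at least 4-fold higher in lung and 897 in blood, with 495 of the 506 and 500 of the 513 calls shared. Both folds are printed below for several leading genes. Lower bounds hold for the scaling as reported, and median centring made the leading differences to lung smaller.

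**Figure D1:**
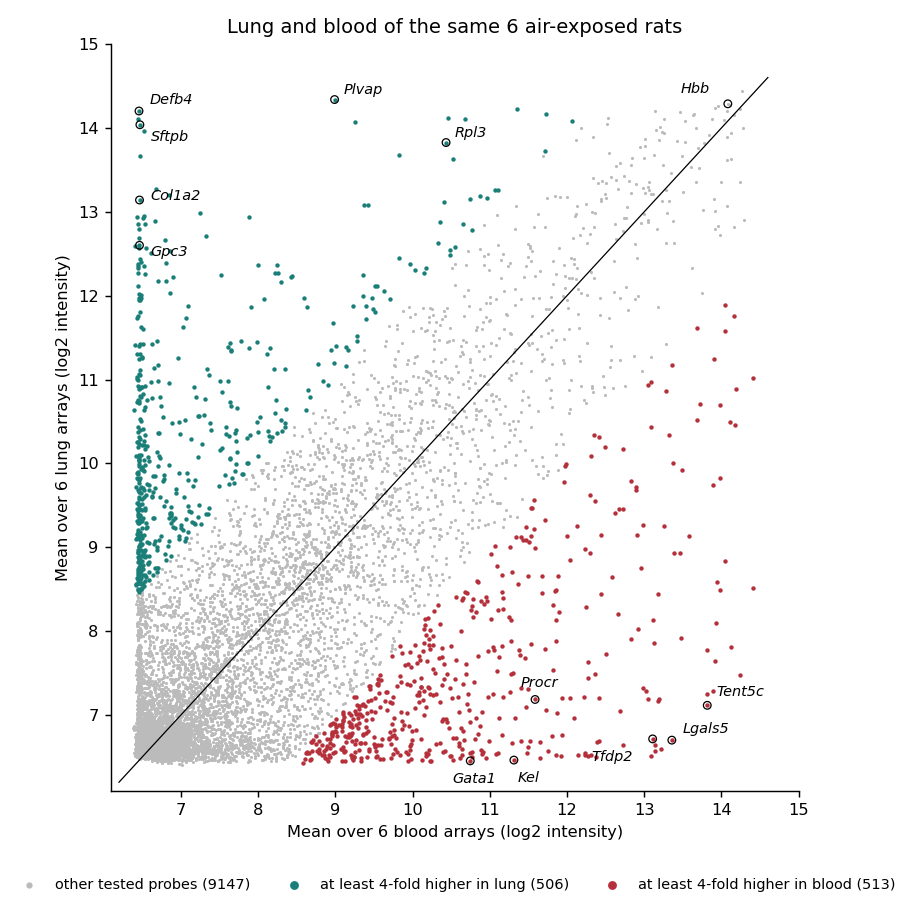
Mean log2 intensity over 6 lung arrays (vertical) against the mean over 6 blood arrays (horizontal) for the 10166 tested probes, with the line of equality. Teal points are the 506 probes at least 4-fold higher in lung, many of them stacked at the blood floor near 6.45, and red points the 513 at least 4-fold higher in blood; circles mark some of the named genes.

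The surfactant protein genes Sftpa1, Sftpb and Sftpc were detected on every lung array and no blood array. Sftpb, which encodes surfactant protein B and is essential for film formation, had a lowest, median and highest value of 13.90, 14.04 and 14.16 over the 6 lungs. In blood it ran 6.45, 6.46 and 6.49, undetected on every array. Raw signals, before any correction, were 14909.7 to 17419 in lung, against 52.6 to 65.6 in blood, so the tissues did not come near each other. The difference was at least 187-fold (adjusted p 5.44e-11, limma), and at least 631-fold with the background read from undetected probes. On the log2 scale Sftpb differed by 7.57 as reported and by 6.22 with median centring. Sftpa1, a collectin of the surfactant, was at least 144-fold higher, Slc34a2, the phosphate transporter of type 2 cells, at least 67.4-fold, and Sftpc at least 59.2-fold. Of 14 surfactant and type 2 cell genes, 13 were on the array and all were tested. At an adjusted p of 0.05, 12 were higher in lung (42.7% of all tested genes) and 1 in blood (36.1%), and 9 were at least 4-fold higher in lung (5% of all genes). Of the 13, 8 were detected on no blood array and entered the test through lung alone. The single member higher in blood was Cd36, a fatty acid receptor that platelets and monocytes also carry, at -1.16 on the log2 scale by one probe and -0.07 (adjusted p 0.642) by the other.

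Scgb1a1, the secretoglobin of airway club cells, differed most among the airway secretory genes. It measured 14.06, 14.09 and 14.18 in lung and 6.42, 6.45 and 6.47 in blood, at least 196-fold apart, or at least 665-fold with the other background. Median centring took the log2 difference of Scgb1a1 from 7.66 to 6.31. Every lung value lay above every blood value. Defb4, a beta-defensin, showed the widest difference among the genes detected throughout lung and never in blood, at least 209-fold, with 14.08 to 14.29 in lung. Aldh1a1, a retinal dehydrogenase, was 85.3-fold higher (278-fold with the other background, 1 of 6 blood arrays detecting it) and Pigr, which carries polymeric immunoglobulin across epithelium, at least 55-fold. Of 14 airway secretory genes, 12 were on the array and 7 tested, with 4 of them at least 4-fold higher in lung (5% of all tested genes). Of the 7, 4 were detected on no blood array. Ciliated cell genes differed less, with 2 of 11 tested past 4-fold: Tppp3 at 9.27-fold and Tekt2, a tektin of ciliary microtubules, at least 6.47-fold. With the background read from undetected probes 6 of the 11 passed, where 1109 of all 10166 tested probes passed to lung. Tppp3 was then 18.6-fold and Tekt2 at least 24.5-fold higher. No blood array detected 7 of the 11.

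Short upstream sequences of Sftpb and Scgb1a1 are shown because these genes are among the 3 widest lung-only differences and because CTCAAG, the core bound by the lung transcription factor NKX2-1, occurs in both. The letters were searched on both strands of the 250 bases before each gene's start in RefSeq (rat assembly GRCr8), and capitals mark the matches. The Sftpb window is chr4:105917338-105917587 on the plus strand, with matches starting 110 and 25 bases before the start. The Scgb1a1 window is chr1:215409687-215409936 on the minus strand, with 1 match 92 bases before the start, on the opposite strand (CTTGAG).
Sftpb: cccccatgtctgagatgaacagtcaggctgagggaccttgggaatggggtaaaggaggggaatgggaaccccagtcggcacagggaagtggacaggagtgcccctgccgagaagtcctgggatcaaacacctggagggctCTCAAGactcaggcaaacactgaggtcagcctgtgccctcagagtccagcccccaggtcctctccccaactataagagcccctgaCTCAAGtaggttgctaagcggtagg
Scgb1a1: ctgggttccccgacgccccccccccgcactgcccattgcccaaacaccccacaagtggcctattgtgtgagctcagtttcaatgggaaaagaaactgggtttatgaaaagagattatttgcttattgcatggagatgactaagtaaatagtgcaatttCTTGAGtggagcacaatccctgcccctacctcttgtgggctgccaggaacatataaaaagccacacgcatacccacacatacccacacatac
CTCAAG stood in 13.3% of 27457 windows of this length, in 3 of the 16 lung genes with the widest differences that had a window and in 4 of the 17 blood genes. GAGGAA, the core bound by ETS factors, stood in 23.2% of all windows, in 3 of the 16 and in 4 of the 17. The match is a description of the letters and not a binding site.

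Type 1 cell and endothelial genes were also far higher in lung. Ager, a receptor that marks type 1 cells, measured 12.75, 12.87 and 12.93 in lung and 6.47, 6.52 and 6.62 in blood, where 2 of 6 arrays detected it. The difference was 80.1-fold. Pdpn, a mucin-type glycoprotein of type 1 cells and lymphatics, was at least 44.3-fold higher and Clic5 at least 21.5-fold. Of 12 type 1 genes tested from a list of 13, 8 were at least 4-fold higher in lung (5% of all tested genes) and none in blood. No blood array detected 9 of the 12, which entered the test through lung alone. Among endothelial genes Ramp2, a co-receptor for adrenomedullin, was 86.3-fold higher, and 1 of 6 blood arrays detected it. Cldn5, the tight junction claudin of vessels, measured 12.52, 12.95 and 13.12 and 6.62, 6.65 and 6.72, 75-fold apart, or 127-fold with the other background. Its log2 difference was 6.23, and 5.06 with median centring. The tissues overlapped for neither gene. Ednrb, an endothelin receptor, was at least 57-fold higher. All 14 endothelial genes tested, of 19 listed, were higher in lung at the adjusted threshold (42.7% of all tested genes). By at least 4-fold 8 of the 14 were higher (5% of all). No blood array detected 8 of the 14, which also entered the test through lung alone.

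Endothelial genes were among the 12 widest differences to lung in genes detected on all 12 arrays. Crip2, a LIM domain protein, led the 12 at 6.35 ± 0.08 on the log2 scale (81.7-fold, adjusted p 1.93e-09), with 13.08 to 13.35 in lung, against 6.63 to 7.04 in blood. With median centring Crip2 differed by 5.26. Acvrl1, a receptor of the TGF-beta family on endothelium, was 58.6-fold higher, Rasip1, needed for vessel lumens, 41-fold and Plvap, a protein of endothelial diaphragms, 40.7-fold. Each was higher in lung in 6 of 6 rats.

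Connective tissue genes were higher in lung as well. Col1a2, a chain of type I collagen, measured 13.01, 13.15 and 13.24 in lung and 6.44, 6.46 and 6.51 in blood, at least 100.1-fold apart, or at least 337-fold with the other background. No blood array detected Col1a2, whose log2 difference of 6.67 became 5.33 with median centring. Sparc, a collagen-binding matrix protein, was at least 87.2-fold higher, and Tcf21, a transcription factor of lung mesenchyme, at least 73.1-fold. Of 11 fibroblast genes tested 6 were at least 4-fold higher in lung, of 11 collagens 4, of 12 basement membrane genes 4, and of 10 elastic fibre genes 5, with none higher in blood by that margin. With the background read from undetected probes these counts were 10, 9, 10 and 8, where 1109 of all 10166 tested probes passed to lung. In the same order of lists, 6, 8, 7 and 9 of the tested genes were detected on no blood array. Ltbp4, which anchors latent TGF-beta to microfibrils, was 56.8-fold higher (detected on 1 of 6 blood arrays) and Eln, elastin itself, at least 5.1-fold.

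Metabolic and complement genes with known lung expression were higher in lung too. Cyp4b1, a cytochrome P450 of airway and alveolar cells, measured 12.71 to 12.95 in lung and was undetected in blood, at least 78.6-fold below lung. Fmo1, a flavin monooxygenase, was at least 23.5-fold higher in lung, and 6 of 12 xenobiotic genes tested passed 4-fold (5% of all tested genes). Of the 12, 4 were detected on no blood array. Cfb, the protease of the alternative complement pathway, was 47.7-fold higher and C4b 36.1-fold. Serping1, the C1 inhibitor, was at least 19.8-fold higher. Of 17 complement genes tested 7 were at least 4-fold higher in lung (5% of all tested genes), and 8 of the 17 were detected on no blood array. Properdin (Cfp), which neutrophils store, was 1 of 2 complement genes higher in blood at the adjusted threshold, at -1.36 on the log2 scale. Of 10 ion and water transport genes tested 3 passed 4-fold to lung, and 4 of the 10 were detected on no blood array. Scnn1a, a subunit of the epithelial sodium channel that clears alveolar fluid, led at 22.1-fold.

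Macrophage genes were higher in lung by smaller margins, with 3 of 11 tested past 4-fold (5% of all tested genes). With the other background 7 passed to lung and 1 to blood, where 1109 and 897 of all 10166 tested probes did. Lpl, lipoprotein lipase, was an exception in size, at 13.01, 13.30 and 13.59 in lung and 6.49, 6.69 and 6.83 in blood, 96.9-fold apart. Lpl is made by alveolar macrophages and also by fat and muscle cells. Mrc1, the mannose receptor, was at least 3.91-fold higher and C1qb, a chain of complement C1q, at least 4.18-fold. One macrophage marker, Itgax, was higher in blood by 1.77 on the log2 scale; dendritic cells and blood monocytes carry it too.

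**Figure D2:**
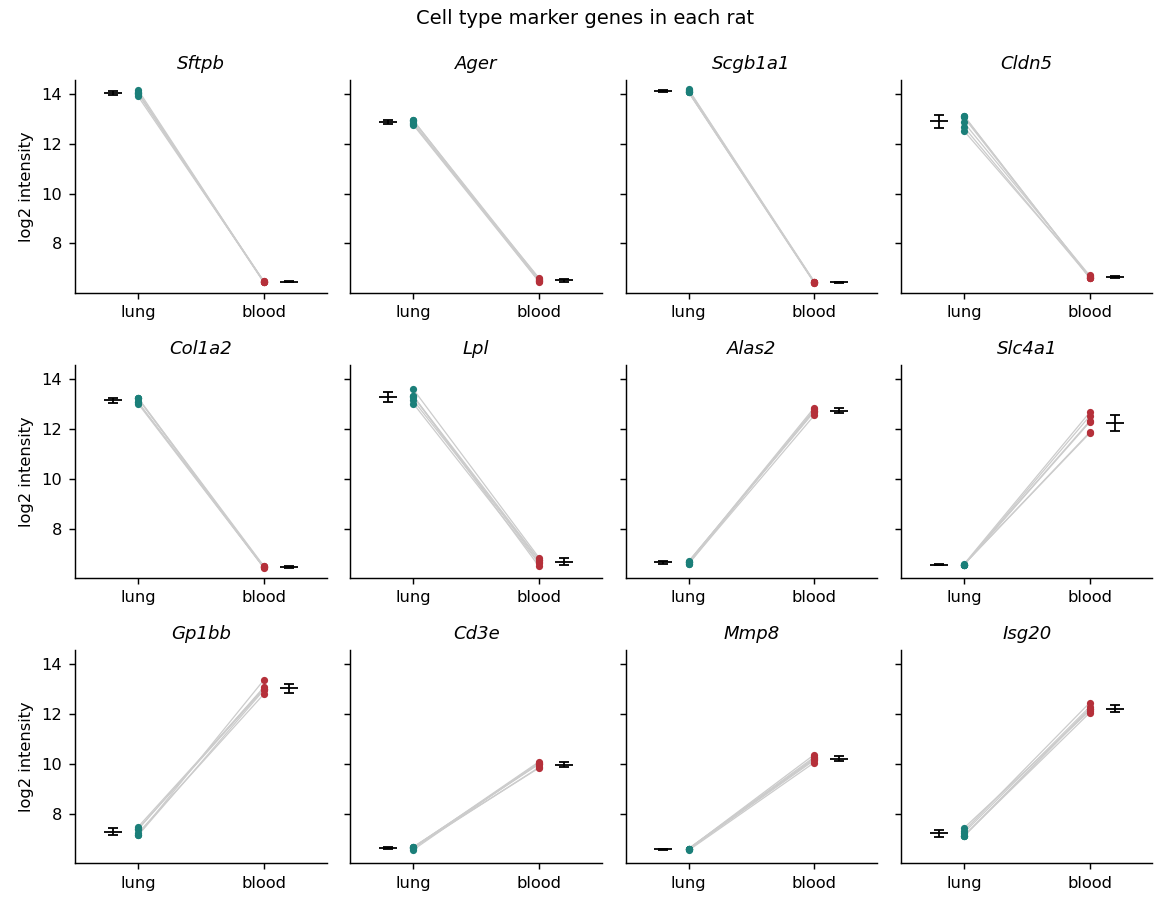
Log2 intensity of 12 cell type genes in the lung (teal) and blood (red) of each rat, with grey lines joining a rat's arrays and black bars giving the mean and SD over 6 rats. The lung and blood values of each gene do not overlap, as for Sftpb, where lung lies between 13.90 and 14.16 and blood between 6.45 and 6.49.

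In the opposite direction, erythroid genes had the lowest median of all lists, at -5.25 on the log2 scale. Alas2, the rate-limiting enzyme of haem synthesis in red cell precursors, measured 6.58, 6.66 and 6.69 in lung and 12.54, 12.72 and 12.85 in blood. The raw signals were 99.5 to 142 and 5588 to 9539, with no overlap. The difference was -6.08 ± 0.04 on the log2 scale, 67.5-fold higher in blood (adjusted p 1.60e-10), or 121-fold with the background read from undetected probes. Fech, ferrochelatase, was 93.9-fold higher and Slc4a1, the band 3 anion exchanger of the red cell membrane, 51.4-fold. All 14 erythroid genes tested, of 18 listed, were higher in blood, 13 by at least 4-fold (5.08% of all genes), and 12 did so without normalization. Of 7 haem synthesis genes tested, 4 were at least 4-fold higher in blood.

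As reported, the widest difference to blood was that of Tent5c, a poly(A) polymerase, at 6.97, 7.09 and 7.34 in lung and 13.45, 13.91 and 14.09 in blood (104-fold). The order depended on processing: Tspan33 was wider without normalization (-6.62 against -6.43), and with the background read from undetected probes Cd52 was 295-fold apart and Tent5c 106-fold. Lgals5, a galectin of rat red cells, measured 6.64, 6.68 and 6.80 and 13.27, 13.36 and 13.46, 101-fold apart, or 157-fold with the other background. Add2, beta-adducin of the red cell membrane skeleton, was 90.2-fold higher. Alox15, the lipoxygenase that acts as reticulocytes lose their mitochondria, was 77.1-fold higher, and Hagh, glyoxalase II, 79.7-fold. Cd52, a surface antigen of lymphocytes, differed by 95.2-fold in the same direction. Without normalization the 12 widest differences to blood in genes detected on all 12 arrays lay between -6.62 (Tspan33) and -5.82 (Hagh) on the log2 scale.

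Red cell genes also led those detected on every blood array and no lung array. Kel, the Kell blood group peptidase, measured 6.45 to 6.47 in lung, against 11.13 to 11.54 in blood, at least 28.7-fold apart, or at least 119.7-fold with the other background. Gata1, the transcription factor that directs red cell and platelet genes, measured 10.29, 10.80 and 11.14 in blood and was at least 19.4-fold higher. Sptb, beta-spectrin, was at least 13.7-fold higher, and Car1, carbonic anhydrase I, at least 12.6-fold. The margins shrank without normalization, to -4.34 for Kel and -2.59 for Car1 on the log2 scale.

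Upstream sequences of Alas2, Add2 and Lgals5 are shown because these blood-high genes hold AGATAA or TGATAA, the letters that GATA factors bind. Both strands of the 250 bases before the RefSeq start (GRCr8) were searched and matches are in capitals; TTATCT is AGATAA on the opposite strand. The windows are chrX:22895200-22895449 (plus strand), chr4:120054628-120054877 (plus) and chr10:64355138-64355387 (minus). The matches start 136 bases before the start in Alas2, 102 and 75 in Add2, and 130 in Lgals5.
Alas2: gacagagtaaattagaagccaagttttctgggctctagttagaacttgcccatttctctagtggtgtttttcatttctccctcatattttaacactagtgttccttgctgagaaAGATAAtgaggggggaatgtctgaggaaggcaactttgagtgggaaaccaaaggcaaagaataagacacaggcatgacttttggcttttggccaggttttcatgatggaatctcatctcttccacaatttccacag
Add2: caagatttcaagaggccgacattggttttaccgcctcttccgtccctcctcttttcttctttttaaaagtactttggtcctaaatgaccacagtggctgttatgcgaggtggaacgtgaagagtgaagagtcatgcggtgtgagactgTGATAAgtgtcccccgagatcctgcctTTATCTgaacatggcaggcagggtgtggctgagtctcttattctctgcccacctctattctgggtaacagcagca
Lgals5: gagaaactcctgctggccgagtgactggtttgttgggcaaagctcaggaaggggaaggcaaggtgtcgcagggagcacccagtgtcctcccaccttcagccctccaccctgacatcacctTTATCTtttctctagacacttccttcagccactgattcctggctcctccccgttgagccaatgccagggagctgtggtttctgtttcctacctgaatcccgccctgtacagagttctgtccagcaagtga
At least 1 of both motifs stood in 16.6% of 27457 windows, in 7 of the 17 named blood genes with a window and in 2 of 16 lung genes. The other 5 of the 22 blood genes and 6 of the 22 lung genes had no entry. The counts were read after the genes had been chosen by their difference and carry no test.

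Globin transcripts themselves, the main RNA of red cells, did not reach 4-fold as reported. Of 12 listed, 8 were on the array and 4 tested, with 1 higher in lung and 2 in blood at the adjusted threshold. Those 2, the embryonic globins Hbe1 and Hbe2, were 7.23-fold and at least 6.58-fold higher in blood with the background read from undetected probes. Hba-a2, an alpha globin, measured 14.05, 14.12 and 14.37 in lung and 14.03, 14.17 and 14.27 in blood, a difference of 0.00 ± 0.04 as reported and -1.56 with median centring. Hbb, a beta globin, measured 14.22, 14.29 and 14.37 and 14.05, 14.07 and 14.14, 0.20 in favour of lung and -1.33 with median centring. Raw signals of Hbb were 18310.1 to 20242 in lung, against 16865 to 20598 in blood, and the ranges overlapped. Both globins lay close to the brightest probe of each array, which read 19148 to 22684 in lung, against 21996 to 25597 in blood. Compression at the top of the scale was not tested. Globin depletion is recorded for blood, and its part in these values was not tested. The mean over the 14 other erythroid genes was 6.89 to 6.99 in lung, against 11.48 to 11.79 in blood.

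Platelet genes were higher in blood without exception among those tested, 9 of 9 by at least 4-fold (5.08% of all tested genes), from a list of 16. Gp1bb, a subunit of the von Willebrand factor receptor, ran 7.13 to 7.47 in lung, against 12.79 to 13.35 in blood, 53.6-fold apart. Nfe2, a transcription factor of platelet and red cell precursors, was 49.5-fold higher by its brighter probe and at least 2.02-fold by the other, which no lung array detected. Clec1b, the receptor CLEC-2, was 36.1-fold higher. Without normalization 6 of the 9 stayed past 4-fold.

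Leukocyte genes were for the most part higher in blood, by smaller margins that depended on scaling. Cd3e, a chain of the T cell receptor complex, ran 6.55 to 6.67 in lung, against 9.84 to 10.09 in blood, with raw signals of 93.3 to 133 and 441 to 661. The tissues did not overlap. The difference was -3.34 ± 0.05 (10.1-fold, adjusted p 2.85e-09), and -2.09 without normalization. Ccr7, the receptor that guides T cells to lymph nodes, was 14.2-fold higher. Of 18 T cell genes tested from a list of 21, all were higher in blood at the adjusted threshold (36.1% of all tested genes). By at least 4-fold 10 were higher (5.08% of all), a count of 2 without normalization. Ptprc, the pan-leukocyte antigen CD45, was 5.55-fold higher, at 6.89 to 7.12 in lung against 9.19 to 9.76 in blood, but -0.84 on the log2 scale without normalization. Of 13 pan-leukocyte genes tested, 10 were higher in blood and 2 in lung at the adjusted threshold, and 5 were at least 4-fold higher in blood. The direction of 4 of the 13 changed under at least 1 scaling alternative. All 10 NK and cytotoxic genes tested were higher in blood, 1 of them by at least 4-fold, and 8 changed direction under at least 1 scaling alternative. In such bulk samples fewer cells of a type and less RNA per cell cannot be told apart.

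Neutrophil genes showed 7 of 13 tested at least 4-fold higher in blood (2 without normalization), against 5.08% of all tested genes. Mmp8, neutrophil collagenase, was 12.4-fold higher and Cxcr2, a receptor for neutrophil chemokines, 6.49-fold (-1.27 on the log2 scale without normalization). The related receptor Cxcr1 was the reverse, with 7.81, 8.34 and 8.49 in lung and 6.44, 6.47 and 6.67 in blood (3.31-fold higher in lung, 1 of 6 blood arrays detecting it). Lcn2, a neutrophil granule protein that epithelium also makes, was likewise higher in lung, by at least 2.14-fold, and no blood array detected it. No member of the B cell list (7 tested) or the monocyte list (7 tested) reached 4-fold in either direction as reported. With the background read from undetected probes 3 B cell genes were at least 4-fold higher in blood, where 897 of all 10166 tested probes were. Of 4 plasma cell genes tested, 2 were higher in lung at the adjusted threshold, 1 was higher in blood and 1 was not called (median 1.01, log2). Only Sdc1 passed 4-fold, with 9.48 to 9.93 in lung, against 6.45 to 6.54 in blood. Mzb1 was higher in blood, at -0.39 on the log2 scale, and Jchain was not called (0.36, adjusted p 0.266, limma). Of 5 mast cell, basophil and eosinophil genes tested, 1 was at least 4-fold higher in lung and none in blood (median 0.04).

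**Figure D3:**
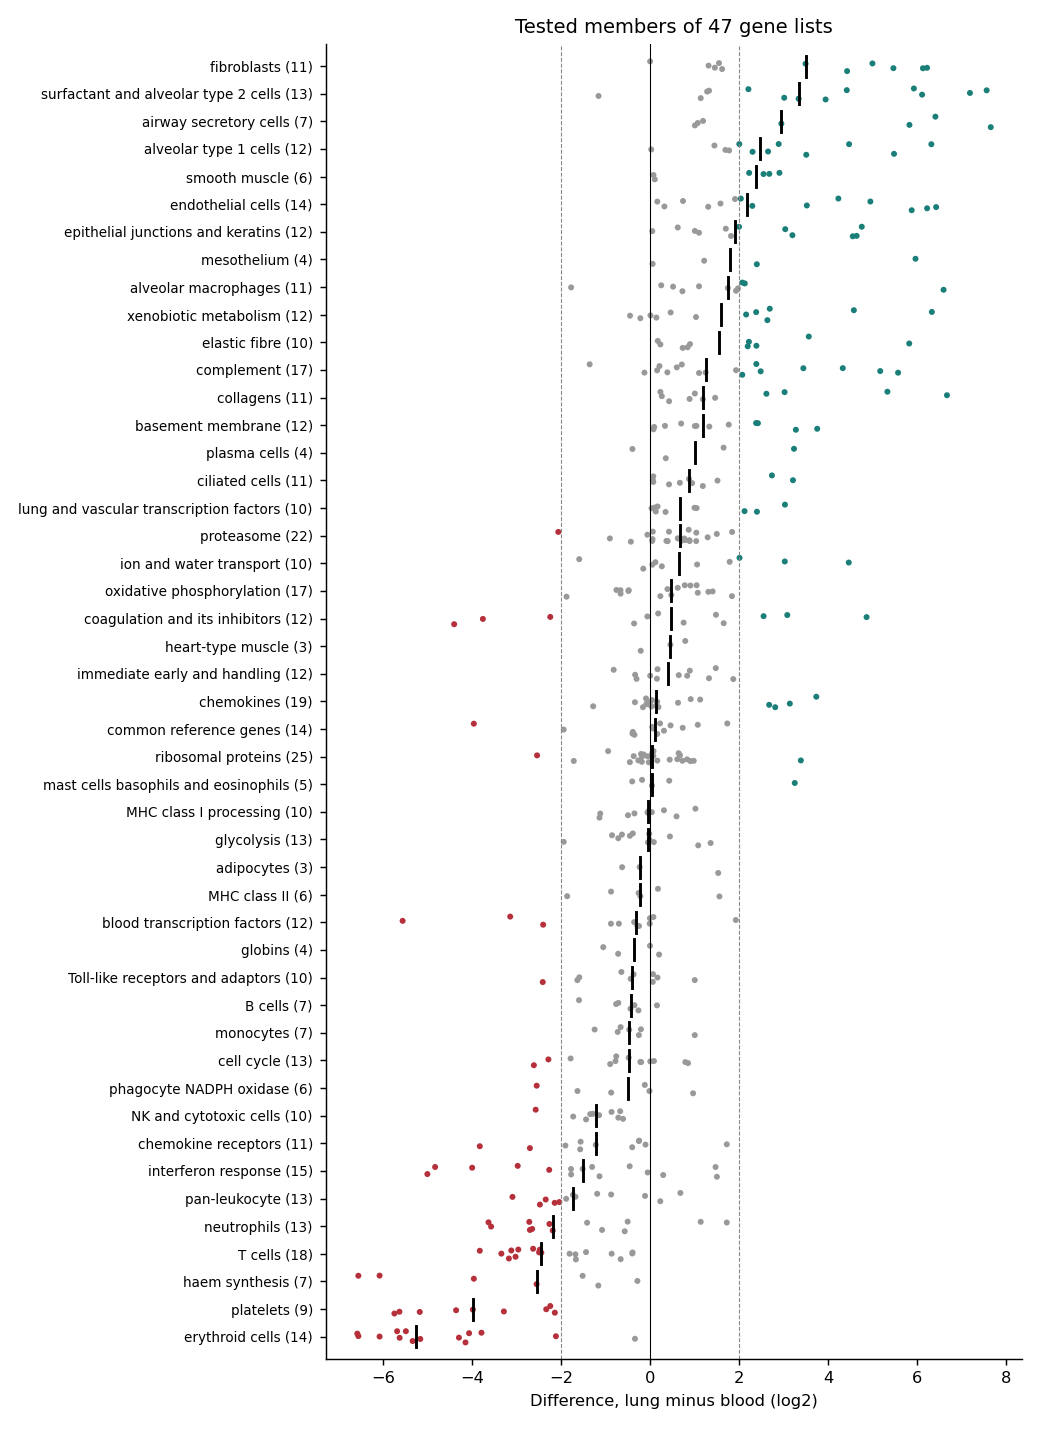
Log2 difference, lung minus blood, of each tested member of 47 gene lists, ordered by the list median (black bar), with the number tested in brackets. Teal and red points lie past the dashed 4-fold lines; fibroblast and surfactant lists sit at the lung end, and platelet and erythroid lists at the blood end.

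Across the 47 lists, 20 held more members at least 4-fold higher in lung, 15 more in blood and 12 as many of each. Of 10 lung and vascular transcription factors tested, 3 were at least 4-fold higher in lung (5% of all tested genes). Of the 10, 8 were detected on no blood array and entered the test through lung alone. Of 12 blood factors tested, 3 were at least 4-fold higher in blood (5.08% of all), and 1 without normalization. In lung, Klf5 was 8.19-fold higher, Sox17, of arterial endothelium, at least 5.26-fold and Sox18 at least 4.25-fold. In blood, Lyl1, a factor of blood stem and progenitor cells, was 47.1-fold higher (7.67 to 8.19 against 13.31 to 13.70). Gfi1b, which acts in red cell and platelet precursors, was 8.82-fold higher in blood, and -1.87 on the log2 scale without normalization. Some factors known from blood cells were higher in lung instead: Gata2, known from mast cells, progenitors and endothelium, was 9.54-fold higher in lung, and Cebpb 3.81-fold.

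Interferon-induced genes were for the most part higher in blood, with 11 of 15 tested past the adjusted threshold (36.1% of all genes) and 3 higher in lung (42.7%). At least 4-fold higher in blood were 5 (5.08% of all genes), and 3 without normalization. Isg20, an antiviral exonuclease, measured 7.09, 7.17 and 7.42 in lung and 12.04, 12.20 and 12.45 in blood, 32.1-fold apart. Ifit1, which binds foreign RNA caps, was 28.4-fold higher by its brighter probe and 1.62 on the log2 scale by the other. Irf7, the factor that amplifies interferon, was 16-fold higher. Mx2 was 2.84-fold higher in lung, and Ifitm3, an interferon-induced membrane protein outside the list, measured 12.10 to 12.37 in lung, against 6.75 to 7.04 in blood (40-fold higher in lung).

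Thbd and Procr, which act together in the protein C pathway that limits clotting at the vessel wall, differed in opposite directions. Thbd, thrombomodulin, measured 10.96, 11.41 and 11.55 in lung and was undetected in blood, at least 28.1-fold apart. Procr, the endothelial protein C receptor, measured 7.06, 7.16 and 7.42 in lung and 11.47, 11.57 and 11.74 in blood, 21.1-fold higher in blood. Both differences held in 6 of 6 rats, and Procr kept -3.62 on the log2 scale without normalization. F5, coagulation factor V, was 13.5-fold higher in blood, and F13a1, the A chain of factor XIII, stored in platelets and monocytes, 4.73-fold (-0.81 on the log2 scale without normalization). Plat, the tissue plasminogen activator, was 8.49-fold higher in lung and detected on 2 of 6 blood arrays. Of 12 coagulation genes tested, 3 passed 4-fold in each direction (5% of all tested genes to lung and 5.08% to blood).

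Of 19 chemokines tested 4 were at least 4-fold higher in lung (5% of all tested genes) and none in blood (5.08%), and 6 of the 19 were detected on no blood array. Cxcl12, which holds CXCR4-bearing cells in tissue, measured 10.19 to 10.37 in lung, against 6.49 to 6.58 in blood (13.3-fold, 2 of 6 blood arrays detecting it), and Cx3cl1, fractalkine, was at least 8.59-fold higher. Of 11 receptors tested 2 were at least 4-fold higher in blood (Ccr7 and Cxcr2) and none in lung. With the background read from undetected probes 3 passed to blood and 1, Cxcr1, to lung (13-fold). Of all 10166 tested probes, 897 and 1109 passed under that background. Among MHC class II genes 0 of 6 passed 4-fold as reported. With the background read from undetected probes 1 did, RT1-DOb, which was 11-fold higher in blood. RT1-Da, an alpha chain of class II, was 2.95-fold higher in lung, and 0.20 on the log2 scale with median centring (adjusted p 0.0636).

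Of 14 common reference genes tested, 6 were higher in lung, 5 higher in blood and 3 not called, shares near those over all genes (42.7% and 36.1%). Gapdh, a glycolytic enzyme, was 3.83-fold higher in blood after normalization (adjusted p 6.90e-06), while its raw signals overlapped, with 384 to 509 in lung against 349 to 709.7 in blood. Without normalization the difference was -0.14 (adjusted p 0.277). Ppia, cyclophilin A, was 3.34-fold higher in lung. Among 25 ribosomal protein genes the median difference was 0.05, yet Rpl3 was 10.5-fold higher in lung (13.75 to 13.86 against 10.20 to 10.82) and Rps2 5.8-fold higher in blood (-1.17 on the log2 scale without normalization). Probes for ribosomal proteins can also read near-identical pseudogene copies. Of the genes detected throughout, Ubb, a ubiquitin gene, differed by -0.02 ± 0.05 (adjusted p 0.795) and Oaz1, ornithine decarboxylase antizyme, by -0.28 ± 0.04. With median centring Ubb was -1.54. Raw signals of Ubb were 17720.6 to 19161 in lung, against 17704.5 to 23495 in blood, close to the brightest probe of each array. Quantile normalization gives probes of equal rank the same value on every array, so a small difference among the brightest probes is partly set by the method.

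**Figure D4:**
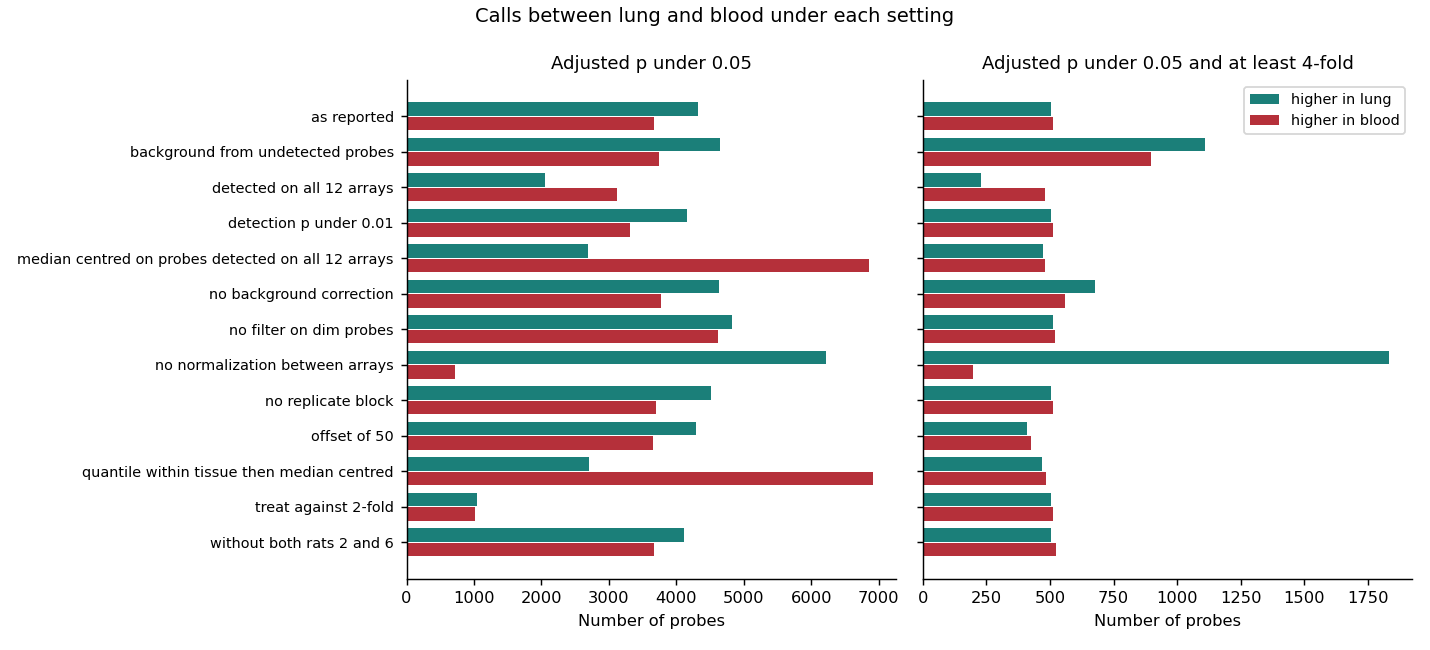
Number of probes called higher in lung (teal) or blood (red) under each processing setting, at an adjusted p of 0.05 (left) and with at least 4-fold added (right). The left panel swings between 6216 and 2687 lung calls with the scaling used, and the right panel moves most without normalization (1834 and 198) and with the background read from undetected probes (1109 and 897).

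The spread between rats was small in lung and larger in blood. The median SD over 6 rats was 0.06 in lung, over probes detected on all 6 lung arrays. It was 0.15 in blood, over the different set of probes detected on all 6 blood arrays. Over the 6207 probes detected on all 12 arrays the SD in blood was larger for 81.6%, with a median ratio of 2.01. That ratio was 1.80 without rat 2, 1.69 without rats 2 and 6 and 1.11 without normalization between arrays. A few genes stood out against this. In lung, Bpifa1, a secreted protein of upper airway epithelium, measured 6.64, 6.54, 9.46, 6.76, 9.02 and 6.79 in rats 1 to 6. Rats 3 and 5 were high and the other 4 near the floor, and the mean difference from blood (at least 2.06-fold) was not called (adjusted p 0.0709, and 0.00183 with the background read from undetected probes). Scgb3a1, an airway secretoglobin, measured 8.14, 8.39, 9.96, 6.82, 8.68 and 8.65, highest in rat 3 and lowest in rat 4.

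Heart muscle genes varied across lungs, with the same rats high. Tnnt2, cardiac troponin T, measured 6.65, 7.77, 9.30, 6.54, 6.73 and 6.53, and Tnni3, cardiac troponin I, 6.59, 7.18, 8.24, 6.50, 6.55 and 6.53. Rats 2 and 3 were above the other 4 in both. Of 12 heart-type muscle genes, 10 were on the array and 3 tested, and their mean ran from 6.50 to 8.01 in lung, against 6.51 to 6.60 in blood; Myh7, a cardiac myosin, was not detected in any lung. The differences of Tnnt2 and Tnni3 from blood were not called (adjusted p 0.0969 and 0.124), were called with the background read from undetected probes (0.00252 and 0.0116), and turned to -0.10 and -0.48 with median centring. Tpm1, a tropomyosin of muscle and many other cells, was high in the same rats (6.71, 8.01, 9.35, 6.60, 6.81 and 6.65) and was still 8.14-fold higher in blood, where it ran 10.18 to 10.51. Whether heart tissue was taken with these lungs was not tested.

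Immediate early genes, which respond within minutes to stimulation and to tissue handling, also varied across lungs. Egr1 measured 7.89, 8.58, 7.06, 9.75, 6.96 and 9.03, and Ier2 9.60, 10.17, 9.22, 10.39, 9.17 and 10.06. Dusp1, a phosphatase of the stress response, measured 12.58, 13.28, 12.28, 13.83, 12.09 and 13.60, so rats 2, 4 and 6 were highest in these 3 and rats 3 and 5 lowest. Not every member of the list followed: Fos measured 8.60, 7.82, 6.85, 7.74, 6.86 and 8.49, highest in rats 1 and 6, and Egr2 (7.56 to 7.80) and Jun (8.34 to 8.75) varied less. In blood Egr1 ran only 6.61 to 6.83. The list's mean was 8.63 to 9.50 in lung, against 8.52 to 8.63 in blood. The differences between tissues for Egr1 (1.48 ± 0.39, adjusted p 0.0104) and Dusp1 (0.84 ± 0.22, adjusted p 0.0104, -0.32 with median centring) were 1.15 and 0.72 without rats 2 and 6 and no longer called with the 4 rats left (adjusted p 0.0922 and 0.0774).

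In blood, rat 2 was lowest in 6 of the 8 genes with the largest spread. Klf3, a factor of red cell and B cell development, measured 9.98, 8.24, 10.15, 10.03, 9.93 and 8.97, and Epn1, an endocytic adaptor, 10.74, 9.08, 10.75, 10.94, 11.01 and 9.85, both lowest in rat 2 and next lowest in rat 6. Retreg3 measured 8.62, 6.70, 8.71, 8.69, 8.81 and 8.68, low in rat 2 alone. Sv2b, a synaptic vesicle protein, measured 10.32, 8.36, 10.16, 9.40, 9.59 and 8.39 in blood and 12.73 to 13.39 in lung, 13.1-fold higher in lung. Klf3 and Epn1 remained 7.52-fold and 10.8-fold higher in blood, with no overlap between tissues, and -1.58 and -2.25 on the log2 scale without normalization.

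**Figure D5:**
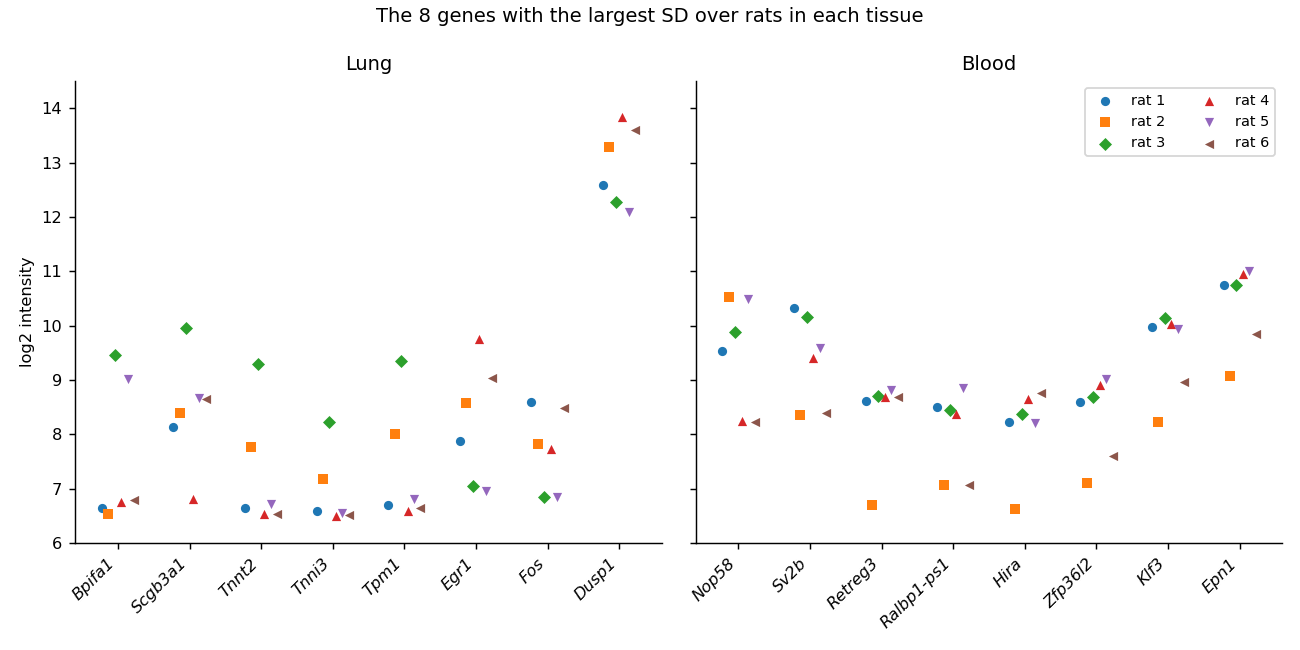
Log2 intensity in each rat of the 8 genes with the largest SD over rats in lung (left) and in blood (right), with colour and marker giving the rat. In lung, rats 2 and 3 are high for Tnnt2, Tnni3 and Tpm1, and in blood rat 2 is lowest for 6 of the 8 genes.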

How the data were processed

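RNA from lung and blood of the 6 air-exposed rats was measured on Illumina BeadChips, and every array's group and rat number were taken from the labels. The deposited tables hold, for each array and probe, an intensity that was not normalized, with the authors' detection p-value and bead number. The submitters' processing notes name BeadStudio, lumi and limma, giving no versions. The authors' normalized values were not used here. The lung and blood tables were joined by probe.

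Intensities were corrected with neqc of limma 3.58.1 in R 4.3.3 (normexp background with controls inferred from the detection p-values, offset 16), quantile normalized over the 12 arrays and taken to log2. Probes detected (p under 0.05) on all 6 arrays of a tissue were tested with lmFit and eBayes, with rat as a block and Benjamini-Hochberg adjustment. A fold for a gene undetected throughout one tissue is a lower bound, set against the dimmest detected signal of each array or the probe's own value where higher. Such a bound is taken at the scaling as reported and moves with that scaling. Rats are separate animals. Lung and blood of the same rat carry the same number in the labels, and that pairing was used. Deviations of the same rat's arrays correlated between -0.04 and 0.16 (mean 0.0862, other rats -0.0176).

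Symbols came from the files, updated through RefSeq (GRCr8), which matched 16321 of 21792 probes. Where a gene had several tested probes, the one with the higher mean over the 12 arrays stands for it. Named are the 12 widest differences each way among genes detected on all 12 arrays, the 10 widest bounds each way, up to 4 genes per list, the 8 most abundant genes whose interval lay within 0.5 of 0, and the 8 most variable genes per tissue. Cd36, Cfp, Itgax, Lcn2, Mx2 and Myh7 were named after their values were seen. The gene lists, members and tests were chosen with earlier results of these data known. The files name no chip, so chip could not be used as a block. The number of arrays limits precision. The fit was tested on simulated data. Some results are not reported here.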

Additional observations from a re-analysis of the deposited data

Results flagged for a closer look

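In 22 of 364 groups of 6 rats (6.04%), one array of a named gene lay far from the other 5 by Dixon's criterion, where chance gives about 1 group in 20. All values here are log2 intensities. In blood, 7 of these arrays were rat 2, one of both blood arrays that stood apart. Retreg3 was 6.70 there against 8.62 to 8.81 in the others, and Hira 6.63 against 8.20 to 8.76. Car1 (9.73) and Gp9 (10.46) were also low in that rat, as was Ubb (14.08), while Mzb1 (7.32) and RT1-Db1 (11.81) were high. Rat 6 was low in blood for Irf7 (12.13) and Ppia (11.92). Rat 4 was low in blood for Fcnb, a neutrophil ficolin, at 9.14 against 10.28 to 10.62, and for Cd3d (10.37), and high for Trim10 (10.93). Rat 3 was low in blood for Hagh (13.84).

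In lung, rat 3 was low for Cfb (12.17) and Scnn1a (10.76). Rat 4 was low for Mfap4 (11.94) and high for Sox17 (9.13) and Tfdp2 (6.78). Rat 6 was low for Plek (8.72), rat 1 for Ubb (14.08), and rat 2 was high for Ncf4 (6.99) and Hba-a2 (14.37).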

How the results depend on the processing

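Leaving out one rat at a time gave 4089 to 4249 probes higher in lung and 3522 to 3644 higher in blood, 496 to 508 and 508 to 525 at 4-fold, and a ratio of spread of 1.80 to 2.10. The fit without the rat as a block (no pairing) gave 4516 and 3697 probes, with the same 506 and 513 at 4-fold. The counts moved most with scaling: median centring gave 2687 and 6862 probes, quantile normalization within tissue 2711 and 6914, and no normalization 725 higher in blood, 1834 and 198 at 4-fold, and 31 lists leaning to lung against 6 to blood. The background read from undetected probes gave 1109 and 897 at 4-fold and a ratio of spread of 1.72. Testing only probes detected on all 12 arrays, fewer by construction, left 2057 higher in lung and 3124 in blood, 227 and 480 at 4-fold. Lung then held 39.7% of the calls, and 11 lists leaned to lung. A test against 2-fold gave 1038 and 1016. The ratio of spread was 1.69 without rats 2 and 6 and 1.11 without normalization. Of 226 named genes, 29 changed direction under some setting with a difference called as reported or under that setting; Tnnt2 and Tnni3 turned with median centring but were called in neither. Without normalization these were Cfd 1.19, Cidec 0.019, Spn 0.37, Vcan 0.014, Cd79b 0.026, Mzb1 0.031, Klrd1 0.070, Cst7 0.057, Gzmb 0.37, RT1-Ba 0.76, RT1-Db1 0.68, Tapbp 0.52, Tap1 0.75, Ncf1 0.077, Tlr6 0.27, Myd88 0.30, Fos 1.02, Nop58 1.40 and Zfp36l2 1.06 (log2). With median centring, and then quantile normalization within tissue, they were Hbb -1.33 and -1.34, Kit -0.49 and -0.50, Psme1 -0.61 and -0.60, Rplp0 -1.39 and -1.38, Tpt1 -1.38 and -1.38, Hba-a2 -1.56 and -1.54, B2m -1.26 and -1.27, Fth1 -1.26 and -1.26, and Dusp1 -0.32 and -0.33. Retreg3 was -0.14 without rats 2 and 6 and -0.13 without rat 2. Under some setting 49 named genes lost their call, 3 of them on leaving out one rat (Tpt1, Scgb3a1 and Hira). The test against 2-fold, which asks for a difference above 2-fold, took the call from 45 genes, and no normalization from 17. The cause was not tested. Signal over background limits the dim genes, and a chip block was not run because the files name no chip.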

Other observations

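Genes whose level varied between rats in both tissues were looked for after the data were seen. An SD above 0.25 in lung and in blood was found for 45 genes, 17 of which carry only a locus or predicted name, and the lung minus blood difference varied less than both tissues for 10 of the 45. An immunoglobulin heavy chain probe (IGH-1A_PREDICTED) measured 7.66, 8.15, 7.08, 8.25, 7.79 and 7.51 in the lungs of rats 1 to 6 and 8.63, 9.13, 7.40, 8.84, 8.37 and 8.06 in their blood, lowest in rat 3 in both tissues. A kappa chain probe (Igkvl16) measured 7.33, 8.39, 7.21, 8.01, 7.18 and 7.13 in lung and 9.54, 9.75, 8.93, 9.44, 8.87 and 8.91 in blood, with rat 2 highest in both. Jchain, of the plasma cell list, did not follow. Rat 2 was highest in lung (10.91) but low in blood (9.24, in a range of 8.83 to 10.41). The SD of its lung minus blood difference (0.78) was above that in lung (0.46) and in blood (0.63). Gzmc, a granzyme of cytotoxic lymphocytes, measured 6.65, 6.56, 6.54, 7.05, 7.05 and 6.53 in lung and 7.76, 7.91, 6.97, 8.72, 8.55 and 7.06 in blood, with rats 4 and 5 highest in both. No test was made of these values.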
